A study of Mus musculus with 4 samples.

Results

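Embryonic limb cells that were sorted for green fluorescent protein (GFP) from Osr1 GCE/+ mice are described here as they were at baseline, from the 2 samples of this genotype among the 4 samples of the series. The 2 samples were chosen by their genotype label alone, and no measured value entered the choice. In the GCE allele, a cassette of eGFP, an internal ribosome entry site and CreERt2 sits at the Osr1 locus, so each of these cells carried a single intact copy of Osr1 and made GFP where Osr1 was active. Each sample came from the limbs of 1 C57BL/6J embryo at stage E13.5 (E, embryonic day), after collagenase digestion at body temperature and sorting of propidium iodide-negative, GFP-expressing cells. The GFP gate defines the cells through the Osr1 promoter, the labels do not separate forelimbs from hindlimbs, and no wild-type cells were among the samples. The remaining 2 samples are GCE/GCE cells, which carry the cassette on both alleles, and the genotypes are not compared here.

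Osr1 encodes a zinc finger transcription factor of the Odd-skipped family, and in the embryonic limb it marks fibroblast-like cells of the irregular connective tissue that lie around and between the forming muscles. Muscle connective tissue cells build the matrix in which myoblasts move and fuse, and they secrete growth factors, receive signals from neighbouring tissues, and carry the positional transcription factors of the limb bud. These roles set the order below, from transcription factors through secreted factors and receptors to the matrix proteins other than collagens.

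Paired-end messenger RNA reads had been counted per gene over 23284 genes, and the GCE/+ libraries held 60534526 and 52121596 counted fragments. Levels are given as CPM (the count divided by the library total and scaled to 1e+06) for replicate 1 and then replicate 2, and also as TPM (counts divided by transcript length and scaled to the same sum) where 1 gene is said to be higher than another. CPM rises with transcript length, so ranks and leading genes by CPM order the genes by fragments and not by molecules. At these depths 10 CPM stood for 605 and 521 fragments, and a count of 3, the floor used here, for 0.0496 and 0.0576 CPM. Osr1 itself was counted 4987 and 4135 times in the GCE/+ libraries against 691 and 852 times in the GCE/GCE libraries, which follows the labels. The Y-linked genes Ddx3y, Eif2s3y, Kdm5d and Uty lay between 35.5 and 208 CPM in both GCE/+ samples, and the X-inactivation transcript Xist was at 2.64 and 0.959 CPM.

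On the CPM scale, receptors, transcription factors and matrix genes had larger shares at or above 10 CPM than the genes as a whole. The secreted factors did not. Of all 23284 genes, 41.3% were at or above 10 CPM in both samples. The share was 183 of 283 receptor genes (64.7%), 305 of 520 transcription factor genes (58.7%), 79 of 139 matrix genes (56.8%) and 120 of 301 secreted factor genes (39.9%). These are counts over chosen lists with no test, and 41.3% is the background share for every count at 10 CPM in both samples below. The result for secreted factors depended on the scale. At 10 TPM in both samples, 129 of 301 secreted factors passed, against 9396 of 23284 genes, a slightly larger share. Receptors then gave 166 of 283, transcription factors 289 of 520 and matrix genes 75 of 139. Among the 500 top genes by mean CPM, which are 2.15% of all genes, there were 27 transcription factors, 21 matrix genes, 15 receptors and 15 secreted factors. Dividing by length changed this order, since 21 transcription factors, 13 secreted factors, 9 matrix genes and 4 receptors were then among the 500 highest, and the receptor and matrix counts fell most. Receptor transcripts at a mean of 10 CPM or more had a median length of 4714 bases, against 3366 bases over all genes at that level.

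**Figure D1:**
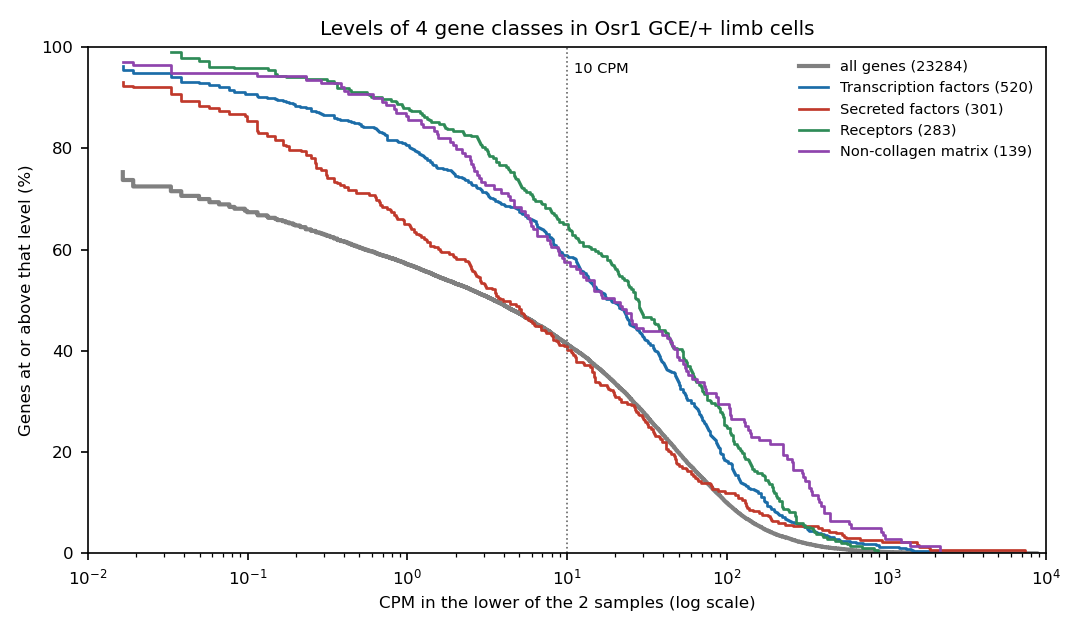
Cumulative share of genes in each class (vertical axis, percent) that reach a given CPM in the lower of the 2 GCE/+ samples (horizontal axis, log scale), with all 23284 genes in grey and the number of genes of each class in the key. At the dotted line of 10 CPM the receptor curve stands at 64.7%, the secreted factor curve at 39.9% and the curve of all genes at 41.3%.

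The classes also differed in how their counts were spread over genes. The 15 leading secreted factors held 75.6% and 75.8% of all counts of that class in replicates 1 and 2. For matrix genes the 15 leaders held 61.5% and 62.6%, for transcription factors 39.4% and 36.8%, and for receptors 33.5% and 33.5%. By fragments, the counts of the secreted list thus came from few genes, while receptor counts were spread over many. Igf2 alone gave 7307 and 7500.4 of the 28691.6 and 28029.6 CPM of the secreted list. Gpc3, Dlk1 and Serpinh1, whose place among secreted factors holds only in part, were also among its 15 leaders. The shares were not examined without these genes or on the TPM scale. Because whole sorted populations were sequenced, fewer cells that express a gene and less of its mRNA per cell cannot be told apart in any value below.

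The 20 top genes by mean CPM held 8.12% and 7.81% of the counts. They included 3 fibrillar collagen genes, Col3a1, Col1a2 and Col1a1, and genes that most cells use heavily: the elongation factors Eef1a1 and Eef2, the chaperones Hspa8, Hsp90ab1 and Hspa5, the actin Actg1, and Tpt1 and Ptma. Eef1a1, Hspa8, Actg1, Tpt1 and Ptma have processed pseudogenes with near-identical sequence, so their values are uncertain to that extent. Nedd4, a ubiquitin ligase, and Gnas, which encodes the stimulatory G-protein alpha subunit, had 2252 and 2476 and 2475 and 2174 CPM. The remaining 7 were H19, a long non-coding RNA, with 8670.3 and 8903 CPM, Mest with 3504 and 3272 CPM, Grb10, an adaptor that restrains insulin and insulin-like growth factor signalling, with 1888 and 2161 CPM, and Igf2, Igfbp5, Fn1 and Fosb of the classes below.

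Immediate-early genes, which cells switch on within minutes of a stimulus without new protein synthesis, led the transcription factors. Fosb, a subunit of the AP-1 complex, had 2596 and 2148 CPM (rank 12 of all genes), and Fos and Jun, of the same complex, had 1897 and 1465 CPM (rank 28) and 1154 and 895 CPM (rank 65). Egr1, a zinc finger factor induced by growth factors, had 1716 and 1325 CPM, and the orphan nuclear receptor Nr4a1 had 1597 and 1338 CPM. Klf6 and Klf4, Krüppel-like zinc finger factors, followed with 947 and 889 and 816 and 708 CPM. All 7 were lower in replicate 2 than in replicate 1. On the TPM scale Fos led the class with 2357 and 1931, ahead of Fosb with 1798 and 1579, Nr4a1 with 1688 and 1502 and Egr1 with 1479.9 and 1213. The ranges of Fosb and Nr4a1 overlapped, so their difference was not larger than the spread between the samples, although Fosb was the higher in each sample.

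The other leaders were of several kinds. Plagl1, an imprinted zinc finger factor, had 1416 and 1586 CPM and Peg3, another imprinted zinc finger gene, had 856 and 1378 CPM. Peg3 was 1.61-fold higher in replicate 2, the largest difference among the 15 leaders. Ctnnb1, which encodes beta-catenin, a Wnt coactivator and adhesion protein that does not bind DNA, had 1198 and 1302 CPM. Tsc22d1 had 694 and 647 CPM, and Ybx1, a cold-shock protein that binds both DNA and RNA, had 664 and 588 CPM. Ebf3, an early B-cell factor family member also found in mesenchyme, had 513 and 549 CPM, the chromatin protein Hmga2 471 and 556 CPM and the nuclear factor I member Nfib 507 and 506 CPM. After division by length 10 of the 15 kept a place among the 15 highest, and the helix-loop-helix inhibitors Id1, Id2 and Id3, the stress-response factor Atf4 and the AP-1 subunit Atf3 took the other 5 places, with 795 and 863 TPM for Id2 and 679.8 and 685 TPM for Id3.

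**Figure D2:**
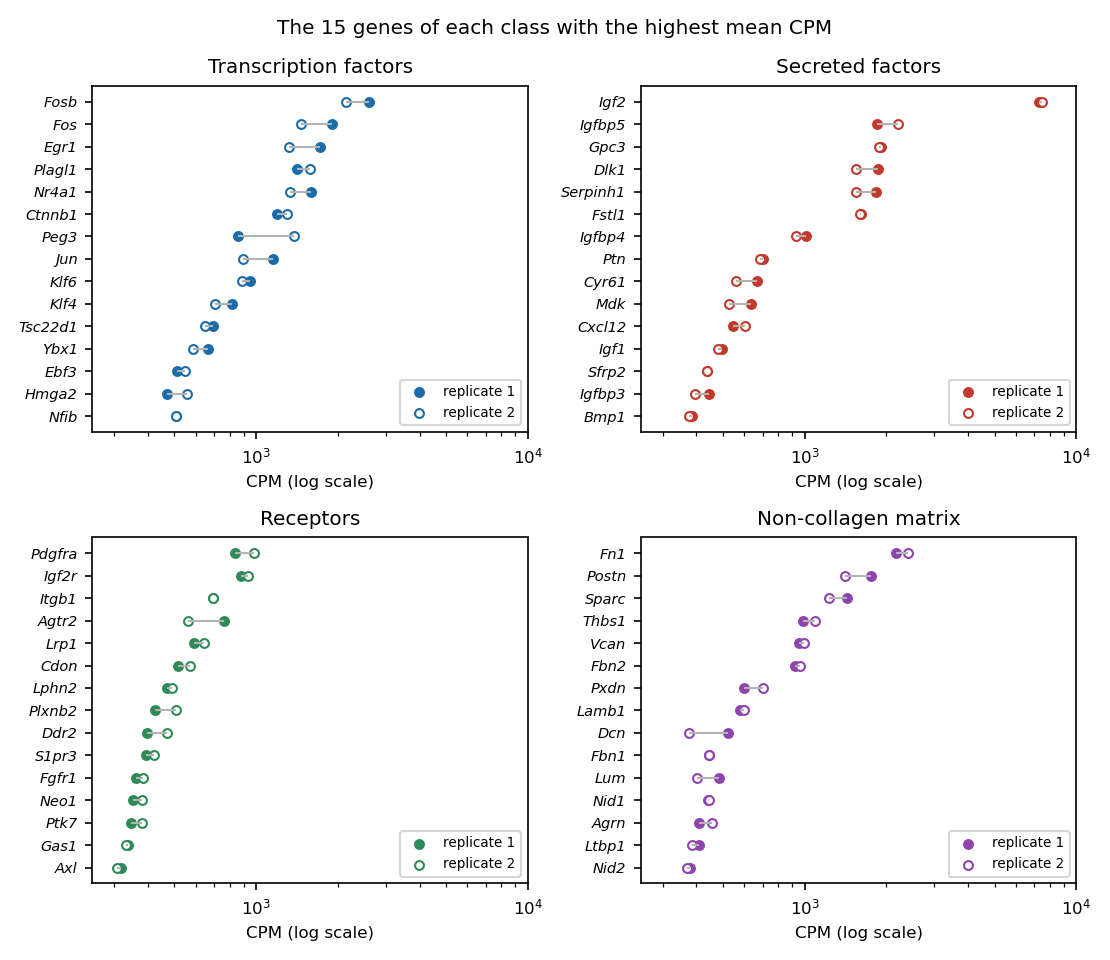
CPM (log scale) of the 15 top genes by mean CPM in each of the 4 classes, with filled points for replicate 1, open points for replicate 2 and a line joining the pair. 10 of the 15 transcription factors and 12 of the 15 secreted factors lie lower in replicate 2, while 12 of the 15 receptors lie higher.

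A wider list of 35 immediate-early genes, drawn up after these levels had been seen, reached beyond transcription factors. In both samples 34 of the 35 were at or above 10 CPM, and 12 were among the 500 highest, against 41.3% and 2.15% of all genes. Since the levels were known when the list was made, high counts may be partly built in. Btg2, an antiproliferative gene, had 645 and 587 CPM, the phosphatase gene Dusp1 275 and 229 CPM, the RNA-decay factor gene Zfp36 269.7 and 199 CPM and Ier2 258 and 180.1 CPM. Summed over the list the level was 16092 and 13399.6 CPM. Some heat shock genes are also induced by stress, and all 11 of a list of 11 were at or above 10 CPM, against 41.3% of all genes. The list includes Hspa8 and Hsp90ab1, named above as genes that most cells use heavily, so this count does not show induction. It also includes the inducible Hspa1a with 41.4 and 36.1 CPM and Hspa1b with 31.5 and 26.8 CPM. These are near-identical copies whose separate values are uncertain. The cells had been shaken at body temperature with collagenase before lysis in every sample of the series, and the part of that step in these levels was not tested.

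Promoters of 4 immediate-early genes are shown because cAMP response elements are known features of several promoters of this kind. Fosb, Fos and Nr4a1 are among the leaders above, and Junb, of the same AP-1 family and lower in rank, was added after its values were seen. Each line gives the 250 bases before and 50 bases after the annotated start, from RefSeq on GRCm38.p6, 5′ to 3′ on the strand of the gene, with matches to TGACG (the core of a cAMP response element) or to TATAAA on either strand in capitals. The Pdgfra promoter, of the receptor with the highest mean CPM, is set beside them.
Fosb (chr7:19309996-19310295, minus strand): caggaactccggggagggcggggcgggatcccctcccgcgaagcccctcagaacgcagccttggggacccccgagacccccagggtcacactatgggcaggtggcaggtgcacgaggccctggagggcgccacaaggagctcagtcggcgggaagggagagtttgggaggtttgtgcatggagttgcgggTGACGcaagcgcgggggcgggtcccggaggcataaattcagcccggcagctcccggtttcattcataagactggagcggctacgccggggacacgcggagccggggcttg
Fos (chr12:85473640-85473939, plus strand): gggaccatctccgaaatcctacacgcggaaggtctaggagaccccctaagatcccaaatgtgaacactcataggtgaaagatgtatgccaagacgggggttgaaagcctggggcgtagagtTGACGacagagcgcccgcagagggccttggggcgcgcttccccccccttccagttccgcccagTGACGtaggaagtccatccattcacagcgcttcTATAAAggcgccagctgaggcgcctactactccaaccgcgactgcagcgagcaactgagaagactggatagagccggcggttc
Nr4a1 (chr15:101266596-101266895, plus strand): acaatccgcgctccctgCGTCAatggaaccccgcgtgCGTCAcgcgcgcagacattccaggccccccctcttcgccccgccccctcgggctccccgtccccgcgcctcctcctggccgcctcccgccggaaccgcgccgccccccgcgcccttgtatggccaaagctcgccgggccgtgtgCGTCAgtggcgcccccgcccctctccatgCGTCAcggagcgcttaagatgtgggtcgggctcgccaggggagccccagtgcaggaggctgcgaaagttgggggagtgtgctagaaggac
Junb (chr8:84978699-84978998, minus strand): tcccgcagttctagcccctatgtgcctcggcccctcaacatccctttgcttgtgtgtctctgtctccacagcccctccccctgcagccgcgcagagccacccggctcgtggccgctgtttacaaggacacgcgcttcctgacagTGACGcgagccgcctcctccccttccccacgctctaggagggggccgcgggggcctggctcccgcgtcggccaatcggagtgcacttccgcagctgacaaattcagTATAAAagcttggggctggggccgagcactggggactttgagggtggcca
Pdgfra (chr5:75152001-75152300, plus strand): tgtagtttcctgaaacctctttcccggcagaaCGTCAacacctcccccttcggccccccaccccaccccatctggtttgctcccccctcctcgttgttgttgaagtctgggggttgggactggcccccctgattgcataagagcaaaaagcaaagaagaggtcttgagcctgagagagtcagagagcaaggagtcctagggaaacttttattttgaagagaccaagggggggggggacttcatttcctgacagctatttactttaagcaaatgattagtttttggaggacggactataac

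Nr4a1 held 4 matches to TGACG, Fos 2, and Fosb, Junb and Pdgfra 1 each. The TATAAA of Fos began at position -33, counted from 1 at the annotated start with -1 as the base before it, and that of Junb at position 1. Promoters were found for 26 of the 35 immediate-early genes, and 19 of their 32 promoters (59.4%) held TGACG, against 20.8% of all 32851 promoters of the same length. The share was 27.2% for promoters of the transcription factor class and 44.4% for those of its 15 leaders, of which 7 are immediate-early genes. For TATAAA the shares were 12.5% of the immediate-early promoters and 13.6% of all promoters. A match describes the letters of this window and is not evidence that a factor binds there, and both strings were chosen after the levels were seen.

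Osr1 and its paralogue Osr2 were present at similar levels. Osr1 (GRCm38 chr12:9570116-9581500, plus strand) had 82.4 and 79.3 CPM, with 95% exact Poisson intervals of 80.1 to 84.7 and 76.9 to 81.8 CPM that cover counting error only. It ranked 3163 of all genes by CPM and 1713 by TPM. Osr2 had 86.3 and 67.2 CPM. In TPM, Osr1 had 107 and 109.6 and Osr2 131 and 108, and the ranges overlapped. Within the class of 520 transcription factors Osr1 ranked 126 by CPM and 64 by TPM.

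Identity factors of both limb types were detected. The T-box gene Tbx5, which specifies the forelimb, had 101 and 95.97 CPM, and the hindlimb genes Tbx4 and Pitx1 had 46.7 and 41.96 and 43.5 and 34.7 CPM. Highest of the T-box genes in TPM was Tbx15, a regulator of limb skeleton and muscle, with 235 and 253 TPM against 75.8 and 84.4 TPM for Tbx18. On the CPM scale Tbx15 had 319 and 324 CPM, followed by Tbx18 with 135 and 142 CPM and the posterior limb gene Tbx3 with 88.2 and 100.3 CPM. In all, 8 of 15 genes of this group were at or above 10 CPM in both samples.

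Of 39 Hox genes, which give positional values along body and limb axes, 13 were at or above 10 CPM in both samples. The Hoxa cluster gave 5 of its 11 genes, Hoxc 4 of 9, Hoxd 3 of 9 and Hoxb 1 of 10. Hoxa10 had 124 and 107 CPM, Hoxc10 49.2 and 62.5 CPM and Hoxa11, a gene of the middle limb segment, 33.4 and 23.5 CPM. Hoxd13, which patterns the hand and foot plate, had 18.4 and 6.66 CPM and was among the genes that differed most between the samples.

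Prrx1, the homeobox gene of limb mesenchyme, had 469 and 478 CPM, and Zfhx4 had 422 and 499 CPM. In TPM Prrx1 was the highest of the mesenchymal homeobox group with 188 and 203, followed by Meox2 with 134 and 127 and Zfhx4 with 79.6 and 100.1. Meox2, Meox1, Shox2 and Alx4 had 121 and 107, 55.4 and 53.2, 39.8 and 51.4 and 44.5 and 41.1 CPM in that order. Of 43 genes of the group 21 (48.8%) reached 10 CPM in both samples, against 41.3% of all genes. The TALE homeodomain partners of Hox proteins did so in 10 of 11 cases, with Meis2 at 163 and 205 CPM and Meis1 at 118 and 154 CPM.

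Factors of mesenchymal and fibroblast state were broadly present. Twist1, a helix-loop-helix regulator of mesenchyme, had 181 and 152 CPM, its paralogue Twist2 74.4 and 54.4 CPM, and the zinc finger repressors Zeb1, Zeb2, Snai2 and Snai1 147 and 150.3, 102 and 93.9, 77.9 and 82.7 and 51.2 and 56.4 CPM. The E proteins Tcf12, Tcf4 and Tcf3, dimer partners of tissue-restricted helix-loop-helix factors, had 364 and 429, 357 and 413 and 237 and 220.5 CPM. All 4 nuclear factor I genes and all 4 Ebf genes were at or above 10 CPM in both samples. Tcf7l2, a Wnt effector that also marks muscle connective tissue fibroblasts, had 148 and 139 CPM, and Tcf7l1, Lef1 and Tcf7 had 123 and 111, 12.8 and 14.1 and 10.8 and 8.84 CPM. In TPM, Tcf7l2 had 106 and 106 and Lef1 9.62 and 11.3, and the ranges did not overlap.

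Effectors of signalling pathways were present for Hedgehog, BMP, TGF-beta, Hippo and cytokine signals. Gli3, the main Hedgehog-dependent repressor of the limb, had 198 and 228 CPM, the activator Gli2 115 and 118 CPM and the pathway target Gli1 81.6 and 84.99 CPM. Among Smad genes 7 of 8 reached 10 CPM in both samples, from the inhibitory Smad6 at 17.4 and 16.5 CPM to the BMP effector Smad5 at 206 and 242 CPM. Srf, a driver of immediate-early and cytoskeletal genes, had 222 and 240.3 CPM, the YAP partner Tead2 230.1 and 229.6 CPM, and Yap1 itself 296 and 313 CPM. Stat3, which transmits interleukin-6-type signals, had 304 and 395 CPM.

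Several factors that define other lineages were low. Among Pax and myogenic genes 2 of 14 reached 10 CPM in both samples, namely Myog at 24.5 and 27.7 CPM and Pax1, a gene of the shoulder girdle and sclerotome, at 19.4 and 14.5 CPM. Pparg, the adipocyte regulator, had 5.57 and 3.45 CPM, and the osteoblast factor Sp7 had 1.503 and 1.82 CPM, whereas its upstream regulator Runx2 had 31.8 and 37.5 CPM. The epithelial factors Trp63, Tfap2a and Grhl2 had 0.925 and 1.11, 1.26 and 1.25 and 0.529 and 0.633 CPM. In their group of 12 listed genes, however, 2 reached 10 CPM in both samples, and the highest mean was 99.5 CPM. Sox9, the chondrogenic regulator, had 78.7 and 99.00 CPM. Sox11 and Sox4, which are widespread in embryonic progenitors, had 238 and 255 and 109 and 139.8 CPM.

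Genes of the insulin-like growth factor (IGF) system were among the leaders of the secreted class, and Igf2 was first in both CPM and TPM. Igf2, the main fetal growth factor of this family, had 7307 and 7500.4 CPM (rank 4) and Igf1 had 498 and 479 CPM. In TPM Igf2 was the higher, with 4053 and 4415 against 185 and 189 for Igf1. The binding proteins that hold IGFs in the matrix or carry them included Igfbp5 with 1840.5 and 2196 CPM, Igfbp4 with 1009 and 928 CPM and Igfbp3 with 444 and 395 CPM, and these were also the highest in TPM with 803 and 1017, 689.5 and 674 and 480.0 and 453. Igfbp2 had 119.7 and 96.8 CPM, while Igfbp6, Igfbp7 and Igfbp1 had 4.59 and 2.84, 4.18 and 2.897 and 0.182 and 0.2302 CPM. Insulin genes were at or below the floor, with 0 and 0 fragments for Ins1 and 1 and 2 for Ins2. 

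The remaining leaders of the class were Gpc3, Dlk1, Serpinh1, Fstl1, Ptn, Cyr61, Mdk, Cxcl12, Sfrp2 and Bmp1. Of these, Gpc3, a glypican that is tethered to the membrane and can be shed, had 1908 and 1873 CPM, Dlk1, a membrane-bound Notch-ligand-like protein that is also shed, 1866 and 1546 CPM, and Serpinh1, the collagen chaperone kept in the endoplasmic reticulum, 1827 and 1543 CPM, so their place among secreted factors holds only in part. Fstl1, a secreted BMP-binding glycoprotein, had 1611 and 1598 CPM. The heparin-binding growth factors Ptn and Mdk had 701 and 686 and 635 and 526 CPM, and in TPM both passed Igfbp5, with 1137 and 1181 and 1578 and 1388 against 803 and 1017. Cxcl12, the chemokine that guides Cxcr4-bearing muscle progenitors, had 543 and 604 CPM, and Cyr61, a matricellular immediate-early protein, 668 and 557 CPM.

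Tgfb2 and Tgfb3 were the highest of the BMP and TGF-beta ligands in TPM, with 91.9 and 103 and 91.04 and 98.1 against 68.7 and 70.2 for Bmp4, and Tgfb1 lay below Bmp4 with 11.97 and 11.1. Tgfb2 had 179 and 189.6 CPM, Tgfb3 118 and 119 CPM and Tgfb1 9.94 and 8.71 CPM. Bmp4 had 54.1 and 52.1 CPM, with Bmp2, Bmp5 and Bmp7 at 38.3 and 33.7, 34.3 and 42.3 and 35.3 and 36.6 CPM, whereas Bmp1, a protease that trims procollagen and not a BMP ligand, had 386 and 374 CPM. The ranges of Tgfb2 and Tgfb3 overlapped in TPM, although Tgfb2 was the higher in each sample. Of the BMP antagonist genes, 12 of 17 were at or above 10 CPM in both samples, and of the BMP and GDF genes 9 of 22, as counts with no test. Twsg1 had 188 and 209 CPM, Nbl1 151 and 129 CPM, follistatin (Fst) 47.97 and 41.4 CPM, chordin (Chrd) 38.03 and 38.7 CPM and noggin (Nog) 11.2 and 11.3 CPM. Mstn, the TGF-beta family inhibitor of muscle growth, had 2.63 and 2.38 CPM.

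Of the Wnt and fibroblast growth factor (FGF) ligand genes, 36.8% and 16.7% were at or above 10 CPM in both samples, against 41.3% of all genes. Wnt5a, the main non-canonical Wnt of limb mesenchyme, had 165 and 173 CPM and Wnt11 59.2 and 60.7 CPM, and 7 of 19 Wnt genes reached 10 CPM in both samples. The secreted Wnt antagonists Sfrp2, Dkk2 and Sfrp1 had 438 and 436, 230.2 and 229.6 and 209.5 and 267 CPM. In TPM they had 573 and 605, 163 and 172 and 125 and 169.9, all above Wnt5a with 61.7 and 68.5. The Wnt enhancers Rspo3, Rspo2 and Rspo1 had 42.8 and 41.5, 19.4 and 22.1 and 18.4 and 18.7 CPM. Fgf10, Fgf7 and Fgf18 had 30.4 and 31.3, 27.7 and 29.2 and 21.8 and 21.2 CPM, and Fgf8, the FGF of the apical ridge, had 1.35 and 1.09 CPM. Hedgehog ligands were all below 2 CPM, with Ihh at 0.776 and 1.59 CPM, Dhh at 0.479 and 0.307 CPM and Shh at 0 and 1 fragments, which is at or below the floor.

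Chemokines, guidance cues and other factors completed the class. Beside Cxcl12, Cxcl14 had 160.0 and 118 CPM and the monocyte attractant Ccl2 64.95 and 64.7 CPM. The macrophage chemokines Ccl3 and Ccl4 had 46.5 and 49.2 and 41.7 and 43.5 CPM and the cytokine Tnf 36.4 and 35.1 CPM, and macrophage markers were present beside them (values below). Mif, a widely expressed cytokine with a short transcript, had 106 and 78.2 CPM and 511 and 399 TPM. The guidance cues Ntn1, Slit3, Slit2, Sema3a and Sema3f had 187 and 210.4, 132 and 151, 113 and 139, 133 and 145 and 136 and 129 CPM. Vegfa, the angiogenic factor, had 199.9 and 193 CPM, and the PDGF ligand genes Pdgfa and Pdgfc had 8.28 and 7.98 and 34.6 and 35.2 CPM. Hgf, the Met ligand that releases muscle progenitors, had 9.94 and 13.55 CPM, and Ntf3, Gdnf and Bdnf, neurotrophic factors, had 19.3 and 17.6, 17.5 and 14.7 and 24.96 and 25.9 CPM.

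Receptors for platelet-derived growth factor, IGF and matrix led the receptor class by mean CPM. Pdgfra (GRCm38 chr5:75152292-75198215, plus strand), a receptor tyrosine kinase of fibroblasts and their progenitors, had 838 and 980.0 CPM. Its paralogue Pdgfrb had 195 and 207 CPM, and in TPM Pdgfra had 321 and 399 against 94.4 and 106 for Pdgfrb. Igf2r, the receptor that clears Igf2, had 883 and 934 CPM and the signalling receptor Igf1r 172 and 204 CPM. Itgb1, the common integrin beta chain, had 696 and 697 CPM, Lrp1, a scavenger receptor, 591 and 642 CPM, and Ddr2, a collagen-binding kinase, 398 and 469 CPM. Agtr2, an angiotensin II receptor of fetal mesenchyme, had 762 and 563 CPM and was 0.739 times as high in replicate 2 as in replicate 1, the largest difference among the 15 leading receptors.

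Hedgehog receptor genes were well represented although the ligands were low. All 7 of 7 genes were at or above 10 CPM in both samples, and 5 of 7 at or above 10 TPM. The co-receptors Cdon, Gas1 and Boc had 516 and 571, 339 and 331 and 300.5 and 303 CPM, the transducer Smo 269.6 and 283 CPM and the receptor and target Ptch1 52.98 and 73.5 CPM. In TPM, Gas1 was the highest gene of the whole receptor class with 768 and 797, above Agtr2 with 608 and 477 and Itgb1 with 478 and 508. The ranges of Agtr2 and Itgb1 overlapped in TPM.

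Fgfr1, the mesenchymal FGF receptor, had 363 and 385 CPM and 189 and 213 TPM, above Fgfr2 with 70.8 and 84.1 CPM and 43.00 and 54.2 TPM, and all 5 FGF receptor genes passed 10 CPM in both samples. For Wnt signals 18 of 23 receptor genes did, with Ptk7 at 347 and 382 CPM, Lrp6 at 207 and 245 CPM, Fzd2 at 201 and 192 CPM and the Wnt5a receptor Ror2 at 93.2 and 83.8 CPM. Bmpr1a, Tgfbr1, Tgfbr2 and Tgfbr3 had 269 and 310.4, 203 and 243, 198 and 214 and 193 and 206 CPM. Notch2, Notch3 and Notch1 had 239.7 and 290.3, 174 and 184 and 110.5 and 136 CPM, and of the ligands in these lists Jag1 had 56.3 and 59.8 CPM and Dll1 2.78 and 3.61 CPM. Against these receptors, 4 of 24 FGF ligand genes were at or above 10 CPM in both samples. At 10 TPM in both samples the counts were 3 of 5 FGF receptor genes and 4 of 24 FGF ligand genes.

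Receptors for guidance cues and lipids were also among the leaders by mean CPM. Plxnb2, a plexin, had 426 and 508 CPM, the netrin and repulsive guidance receptor Neo1 353 and 379.9 CPM, Robo1 268 and 314 CPM, and the ephrin receptor Epha4, which guides limb axons and muscle cells, 271 and 335 CPM. S1pr3, a sphingosine-1-phosphate receptor, had 392.4 and 423 CPM, the lysophosphatidic acid receptor Lpar1 230.4 and 219.7 CPM, the adhesion receptor Lphn2 472 and 489.8 CPM, and the kinase Axl, with its ligand Gas6 at 55.9 and 47.4 CPM, 317 and 307 CPM. The Cxcl12 receptors split, with the scavenging receptor Cxcr7 at 102 and 92.9 CPM and Cxcr4 at 8.89 and 9.401 CPM. Met, the Hgf receptor of migrating muscle progenitors, had 12.5 and 12.9 CPM. Among integrin alpha chains, Itga5 of the fibronectin receptor had 271 and 280.2 CPM, Itga9 117 and 129 CPM, Itgav 88.3 and 98.6 CPM and Itga8 82.1 and 70.01 CPM, whereas the collagen-binding chains Itga11 and Itga1 had 27.97 and 28.97 and 14.1 and 14.3 CPM. Cytokine receptors ran from Il6st at 245 and 322 CPM downwards, and 23 of 50 (46%) reached 10 CPM in both samples, against 41.3% of all genes.

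**Figure D3:**
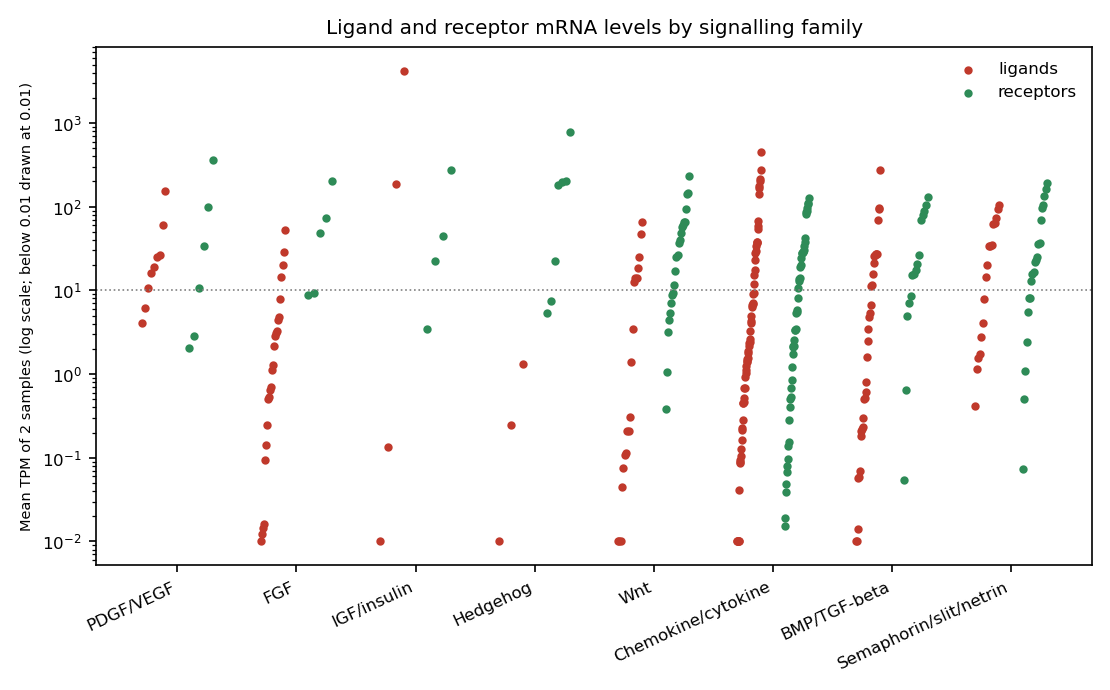
Mean TPM of the 2 samples (vertical axis, log scale, with values below 0.01 drawn at 0.01) for ligand genes in red and receptor genes in green of 8 signalling families, 1 point per gene and a dotted line at 10 TPM. Hedgehog ligands lie below 2 TPM while Gas1 stands at 782 TPM, and Igf2 at 4234 TPM is the highest point.

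Glycoproteins of the provisional and pericellular matrix had the highest mean CPM of the matrix genes other than collagens. Fn1, which encodes fibronectin, had 2170.2 and 2397 CPM. Periostin (Postn), a matricellular ligand of integrins in connective tissue, had 1751 and 1403 CPM, and Sparc, a collagen-binding glycoprotein, 1431 and 1225 CPM. Thbs1 and Vcan, for thrombospondin and the large proteoglycan versican, had 982 and 1089 and 953 and 995 CPM. The order depended on length. In TPM Sparc led with 1629 and 1480.3, then Postn with 1431 and 1217, the microfibril gene Mfap2 with 838 and 767 and Fn1 with 684 and 801. Sparc and Postn had ranges that did not overlap, while Mfap2 and Fn1 had ranges that overlapped.

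Elastic fibre and microfibril genes were at or above 10 CPM in 13 of 17 cases. Fibrillin genes Fbn2 and Fbn1 had 922 and 960.3 and 443 and 445 CPM, Ltbp1, which tethers latent TGF-beta, 407 and 386 CPM, Mfap4 356 and 324 CPM and elastin (Eln) 298 and 237 CPM. Basement membrane genes did so in 14 of 23 cases. Lamb1 had 579 and 600.2 CPM, Nid1 and Nid2, for the nidogens that link laminin to collagen networks, 439 and 445 and 379.9 and 369 CPM, Agrn 408 and 457 CPM, Lama4 327 and 326 CPM, Hspg2 312 and 299 CPM and Lamc1 260.3 and 273 CPM. Lama2, the laminin alpha chain of muscle, had 47.9 and 46.6 CPM.

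Small leucine-rich proteoglycans, which bind collagen fibrils and growth factors, gave 7 of 16 genes above the limit. Decorin (Dcn) had 520.3 and 376 CPM, lumican (Lum) 484 and 403 CPM, Ogn 294 and 223 CPM and Bgn 275 and 225 CPM, and all 4 were lower in replicate 2. Tnc, for tenascin C, had 342 and 352 CPM, Thbs2 209 and 186 CPM and Thbs4 189 and 158 CPM, whereas Tnxb had 9.04 and 5.91 CPM. Pxdn, a peroxidase that crosslinks collagen IV, had 597 and 702 CPM and Egfl6 339 and 337 CPM. Of the mineral-binding genes 2 of 7 were above the limit, and of the matrilins and other small cartilage matrix genes 2 of 12. The cartilage proteoglycan Acan and the link protein Hapln1, which are counted with the large proteoglycans, were above it with 25.6 and 53.2 and 14.8 and 28.2 CPM. Osteocalcin (Bglap) had 0.0496 and 0.0192 CPM and cartilage oligomeric matrix protein (Comp) 2.28 and 4.14 CPM.

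Imprinted genes recurred among the leaders of every class but the matrix. Such genes are expressed from the copy of 1 parent, in some cases only in certain tissues, and are known for their part in fetal growth. The counts do not separate the parental copies. In a list of 34 drawn up after the levels were seen, 13 were among the 500 top genes by mean CPM, against 2.15% of all genes. H19, Igf2, Mest, Gnas, Grb10, Dlk1, Plagl1, Peg3 and Igf2r are given above. The others were Rian with 1774 and 1709 CPM and Meg3 with 1342 and 1503 CPM, non-coding RNAs of the Dlk1 locus, Peg10 with 757 and 971 CPM and Cdkn1c, a cell cycle inhibitor, with 875 and 737 CPM. The list summed to 3.51% and 3.59% of all counts, of which Igf2 and H19, neighbours on chromosome 7 (GRCm38 chr7:142575529-142578143 for H19 and chr7:142650766-142666816 for Igf2, both on the minus strand), gave the most. In all, 29 of the 34 were at or above 10 CPM in both samples, against 41.3% of all genes. Among them were Slc38a4, Nnat and Ndn with 245 and 262, 222 and 262 and 252 and 207 CPM. The 5 below it were Slc22a18 with 1.73 and 1.59 CPM, Phlda2 with 2.02 and 1.84 CPM, Rasgrf1 with 0.991 and 0.7099 CPM, Snrpn with 0.0661 and 0.2302 CPM and Ascl2 with 0.149 and 0.153 CPM. The library kit does not mark strand, so reads of overlapping sense and antisense transcripts at these loci cannot be told apart. Fragments that map to overlapping genes are not counted. A low value here, such as the 4 and 12 fragments of Snrpn, therefore need not mean little transcript.

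Fibroblast and progenitor markers were present, but this does not test the label of the cells, since the GFP gate itself rests on the Osr1 locus. The limit of 10 CPM does not separate cell types either. It was reached by 41.3% of all genes, by 11 of 12 cartilage markers and by 10 of 12 macrophage markers. All 11 of 11 fibroblast and progenitor markers, Osr1, Pdgfra, Col3a1 and Dcn among them, were at or above 10 CPM in both samples, from 54.4 CPM for Twist2 in replicate 2 to 9606 CPM for Col3a1 in replicate 1. Their summed level was 22715 and 20589 CPM. Of the 9 surface markers of adult fibro-adipogenic progenitors and mesenchymal stem cells, 8 reached 10 CPM, and Ly6a, the Sca1 antigen gene, did not, with 0.644 and 0.7099 CPM. The 8 included Cd34 with 76.8 and 60.0 CPM and Thy1, the CD90 gene, with 38.6 and 26.7 CPM. On the cell surface, the paper found Osr1-expressing E13.5 cells negative for Sca1 and CD34 and mostly negative for CD90. It found them positive or mostly positive for the other markers of this list, and negative for CD44 and CD146, which are not in it. The paper also reports that mRNA abundance paralleled these surface markers in part. Levels of mRNA and surface protein are unlike measures.

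Markers of several other cell types were also counted. Skeletal muscle markers summed to 166 and 184 CPM over 12 genes, with the progenitor genes Pax7 and Pax3 at 2.68 and 3.51 and 1.11 and 1.13 CPM and the fetal contractile genes Actc1 and Myh3 at 66.1 and 70.5 and 29.98 and 37.2 CPM. Macrophage markers summed to 349.9 and 348 CPM, and 10 of 12 were at or above 10 CPM, among them Mrc1 with 98.7 and 104 CPM and Csf1r with 61.04 and 67.5 CPM. Endothelial markers summed to 121 and 96.8 CPM, with Cdh5 at 24.3 and 19.5 CPM. Epithelial and Schwann or neural markers did not reach 10 CPM in both samples in any case, and the defining genes Krt14, Cdh1 and Sox10 were at 1.21 and 1.67, 0.776 and 0.787 and 3.42 and 3.17 CPM. Of the bone markers 2 of 6 reached 10 CPM, namely Phex with 51.8 and 50.2 CPM and Runx2, and Bglap, of mature osteoblasts, was at 0.0496 and 0.0192 CPM. Of the adipocyte markers 2 of 6 did, namely Lpl with 56.8 and 48.04 CPM and Cebpa with 21.4 and 18.9 CPM, and Adipoq, of mature adipocytes, was at 0.198 and 0.0384 CPM. Smooth muscle and pericyte markers were uneven, from 1.85 and 1.36 CPM for Rgs5 to 174 and 184 CPM for Notch3.

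Tendon markers lay higher, at 2315 and 1840.0 CPM in sum, but most of that was Egr1, which is also an immediate-early gene. The tendon-defining Scx and Tnmd had 10.04 and 7.12 and 15.9 and 7.905 CPM, and Kera, Thbs4 and Mkx had 118 and 105, 189 and 158 and 25.1 and 23.2 CPM. Cartilage markers were at or above 10 CPM in both samples in 11 of 12 cases. They summed to 764 and 1171 CPM, and Col2a1, the fibrillar collagen of cartilage, had 361 and 573 CPM. Red cell markers summed to 517 and 176 CPM, nearly all from the embryonic globin Hbb-y, with 452 and 152 CPM. The adult alpha globins Hba-a1 and Hba-a2 were counted 0 and 0 and 3 and 0 times, and these near-identical copies cannot be read one by one. What share of the sorted cells these markers stand for was not tested.

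**Figure D4:**
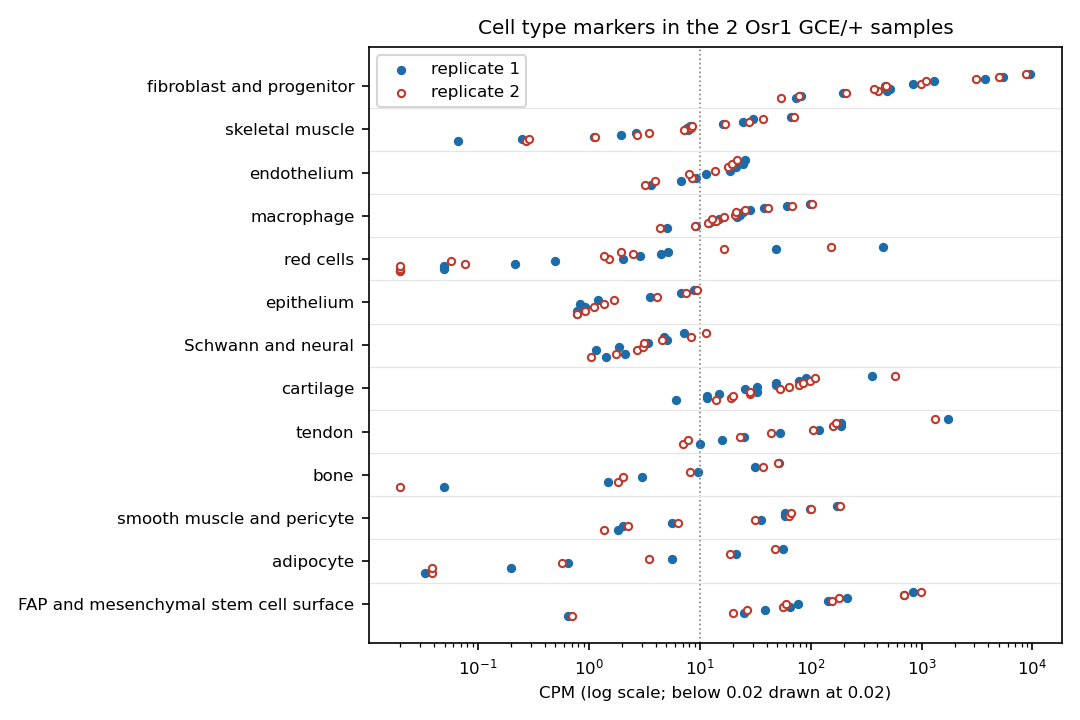
CPM (log scale, with values below 0.02 drawn at 0.02) of every marker in 13 cell type lists, filled points for replicate 1 and open points for replicate 2, with a dotted line at 10 CPM. All fibroblast and progenitor markers lie to the right of the line and all epithelial markers to its left, and red cell markers lie lower in replicate 2.

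Few genes differed by more than 1.5-fold between the samples, and cartilage markers were among them. Of 9786 genes whose mean reached 10 CPM, 70 (0.715%) were more than 1.5-fold higher in replicate 2 and 48 (0.490%) more than 1.5-fold lower, on CPM plus 0.5. With 1 sample on each side there is no test. Cartilage markers made up 9 of those higher in replicate 2, from a list of 12, with a median of 1.65-fold, and 11 of the 12 were higher there against 50.9% of all genes. Acan, the cartilage proteoglycan, had 25.6 and 53.2 CPM and Matn1 6.15 and 14.04 CPM, while Lect1, the chondromodulin gene, was the exception with 32.9 and 28.3 CPM.

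Red cell and immediate-early genes went the other way. Hbb-y and Hba-x had 452 and 152 and 49.2 and 16.5 CPM, and the adult beta globin entry Beta-s 55.9 and 17.2 CPM. Of the immediate-early genes whose mean reached 10 CPM, 28 of 34 were lower in replicate 2, against 49.1% of all genes, but only 2 were lower by more than 1.5-fold, namely Klf2 with 134 and 73.1 CPM and Junb with 263 and 171 CPM. Their median was 0.8400 times the level of replicate 1. The other genes with the largest changes were 5830417I10Rik (17.1 and 4.12 CPM) and Hoxd13 downwards, and Zbed6 (45.8 and 104 CPM), Rab11fip4 (7.09 and 16.2 CPM), Matn1, Retsat (9.22 and 20.5 CPM) and Hipk2 (13.1 and 28.3 CPM) upwards.

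The class medians moved little, at 0.06 on the log2 scale for transcription factors, 0.05 for receptors, -0.06 for secreted factors and -0.06 for matrix genes, against 0.00 for all genes. Transcript length moved with the difference between the samples. Over 9722 genes with a length the Spearman correlation of the log2 ratio with length was 0.619, a description across genes of 1 pair of libraries. With genes split into 4 equal groups by length, in the shortest group, up to 2182 bases, the median ratio was -0.14, and in the longest, from 4938 bases, it was 0.15. With the median ratio of genes of like length subtracted, the receptor median turned from 0.05 to -0.04, and the transcription factor, secreted factor and matrix medians were 0.01, -0.05 and -0.12. Cartilage markers were still higher in replicate 2 by 0.64 and immediate-early genes lower, at -0.18, on the log2 scale.

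**Figure D5:**
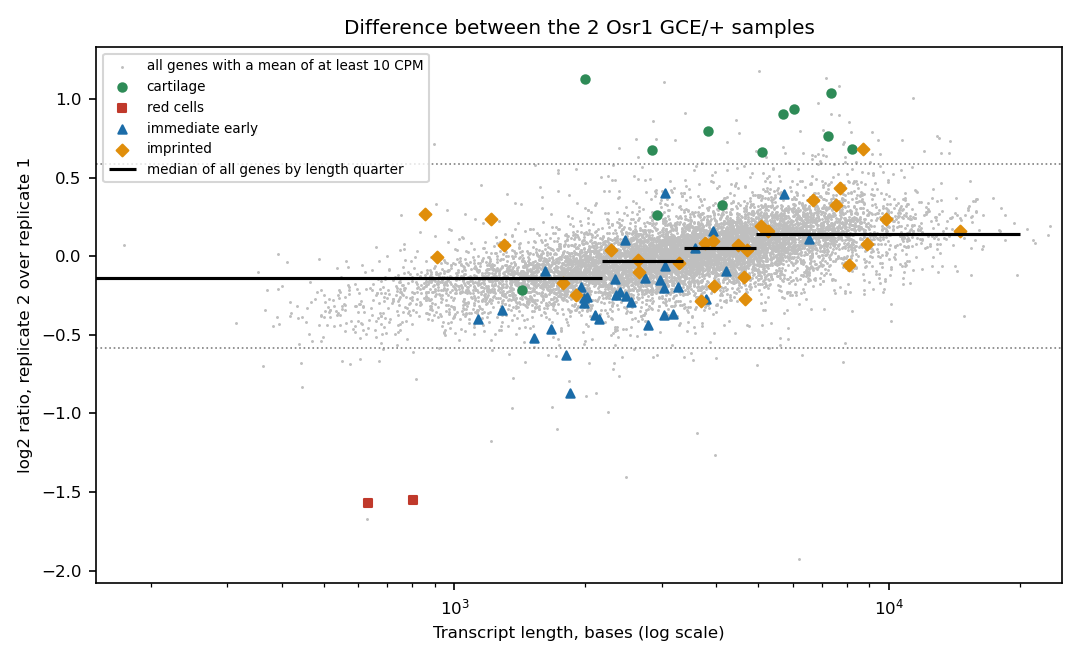
Log2 ratio of CPM plus 0.5 in replicate 2 over replicate 1 (vertical axis) against transcript length in bases (horizontal axis, log scale) for genes whose mean reached 10 CPM, with cartilage, red cell, immediate-early and imprinted genes coloured, black bars for the median of each of the 4 length groups and dotted lines at 1.5-fold. The bars climb from -0.14 to 0.15, cartilage genes lie above them except Lect1, and the red cell genes Hbb-y and Hba-x lie lowest of the coloured points.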

How the data were processed

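Total RNA of sorted cells was made into libraries with an unstranded kit that selects polyadenylated RNA and sequenced as 50-bp read pairs. Per the labels and the study's methods, the authors mapped reads to mm9 with TopHat2 and deposited raw counts of fragments per gene from HTSeq in intersection-strict mode (versions not given in the sources used here). Fragments that map to several places or to overlapping genes are not counted in this mode. Here CPM was computed from the total over all 23284 genes, and TPM from the longest RefSeq-linked GENCODE M21 transcript (GRCm38), with 20882 symbols matched by name, 1922 by synonym and 480 unmatched. The 2 GCE/+ samples were described with no test, since the rule for this group sets no comparison between genotypes. Named genes were the 20 with the highest mean CPM, the 15 highest in each class, all markers, the 5 largest rises and 5 largest falls between the samples, and other members of described subgroups. Members and gene lists were chosen with earlier results of these data known. Scaling by edgeR (TMM) and DESeq2 size factors, other limits and the omission of each replicate were tried as alternatives. The computations were tested on simulated counts. Python 3.11.15, R 4.3.3, edgeR 4.0.16 and DESeq2 1.42.0 were used.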

Additional observations from a re-analysis of the deposited data

How the results depend on the processing

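With only 2 samples, the spread is poorly known and no difference between them could be tested. Under TMM and DESeq2 size factors the mean CPM of the 193 named genes changed by at most 0.169%, and no class count or list median moved beyond its tolerance (1.5-fold for counts, 0.1 on the log2 scale for medians). Both scalings lay close to the library totals (TMM factors 0.998 and 1.002), so a change this small was fixed by the factors. Leaving out either replicate moved no class count by over 1.5-fold. Counts moved where the limit itself changed. At a minimum of 1 CPM, 195 secreted factors and 119 matrix genes passed, and at 30 CPM 79 secreted factors. The 200 highest genes held 12 transcription factors, 5 receptors and 8 matrix genes, and the 1000 highest held 50 transcription factors and 37 receptors. On the TPM scale the 500 highest held 4 receptors and 9 matrix genes. With no minimum level, 199 genes were more than 1.5-fold higher and 205 lower in replicate 2, and the red cell median was -0.71 on the log2 scale. The length adjustment, chosen after the data had been seen, left 39 genes more than 1.5-fold higher, took the red cell median to -1.33, and left 7 cartilage markers past 1.5-fold. No paired analysis was possible because the results come from no test.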

Other observations

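Further transcription factor families gave values that belong to none of the descriptions above. Forkhead genes were at or above 10 CPM in both samples in 14 of 44 cases, among them Foxk2 with 134 and 129.6 CPM and Foxj3 with 118 and 124 CPM, and 4 had no count in either sample. Foxp1 and Foxp2 had 81.00 and 96.01 and 69.03 and 86.8 CPM, and Foxc1 had 15.9 and 16.8 CPM. Nuclear receptors other than the Nr4a group included the retinoid receptors Rxra and Rarg, with 108 and 122 and 102 and 104 CPM, and the thyroid hormone receptor Thra, with 109 and 110.0 CPM. Of all 42 nuclear receptor genes 17 reached 10 CPM in both samples. The glucocorticoid receptor gene Nr3c1 had 78.3 and 75.5 CPM.

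Factors tied to the cell cycle were present in both samples. Among E2f, dimer partner and Myb genes 11 of 13 reached 10 CPM, with Tfdp1 at 112 and 110.2 CPM, E2f3 at 83.5 and 81.8 CPM and E2f1 at 44.3 and 37.9 CPM. Foxm1 and Mybl2, which peak with mitotic gene expression, had 63.01 and 75.4 and 30.1 and 28.7 CPM. Ets family genes reached 10 CPM in 16 of 22 cases, and Etv5, a common target of FGF signalling, had 87.1 and 102 CPM and Etv1 17.5 and 21.3 CPM.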
